A study of Homo sapiens with 2 samples.

Results

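HIPK1, HIPK2, HIPK3 and HIPK4 are the 4 homeodomain-interacting protein kinase genes, and their transcripts were followed in HEK293 cells with and without LARP7. The members were taken by gene name: 21 transcripts of these 4 genes were found among the 198002 transcripts in the tables, 11 of HIPK1, 3 of HIPK2, 6 of HIPK3 and 1 of HIPK4. HIPK3 had drawn attention by its own values in these libraries, so its levels and transcript shares are a description without a test, while HIPK1, HIPK2 and HIPK4 came in by family name. HEK293 is an established line from human embryonic kidney. Total RNA was sequenced from parental cells and from a LARP7 knockout, clone 1-11, with 2 libraries in each group. The knockout is 1 clone, so the loss of LARP7 and any other property of that clone cannot be told apart. No label says whether a group's 2 libraries were grown separately, so the spread behind each p-value may be technical. The knockout's source label reads wildtype, but its title and genotype give the knockout, and these were followed.

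The HIPK proteins are serine/threonine kinases related to the DYRK family that act largely in the nucleus. HIPK2, the best studied, phosphorylates several transcription factors and corepressors, is tagged with SUMO, and is destroyed through ubiquitin ligases such as SIAH1. HIPK1 and HIPK3 share the kinase domain and many partners with it, while HIPK4 is the most distant member and is known chiefly from testis and skin. LARP7 binds 7SK RNA, the noncoding RNA that holds the elongation kinase P-TEFb inactive, and also guides modification of the U6 spliceosomal RNA.

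HIPK1, HIPK2 and HIPK3 each have coding transcripts that differ by a small in-frame stretch in the middle of the coding sequence. The stretches of HIPK1 and HIPK2 are shown because some transcripts of these genes include them and others do not. The sequences are from the GENCODE v29 transcripts (GRCh38), 5′ to 3′ on the gene's strand. Capitals mark the stretch, and lower case the 30 transcript bases on either side. The HIPK3 exon, which is not printed, is exon 12 of 17 of HIPK3-201 and is 63 bases or 21 codons long, all coding. HIPK3-201 without it is base for base HIPK3-202, over 7345 bases.

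The HIPK1 exon lies at chr1:113963387-113963521 (plus strand). It is coding exon 10 of 16 of HIPK1-205, is 135 bases or 45 codons long, and is skipped in HIPK1-204 and HIPK1-211. The HIPK2 stretch lies at chr7:139614413-139614493 (minus strand). It is the first 81 bases, or 27 codons, of exon 8 of 15 of HIPK2-202, and a downstream splice acceptor leaves it out of HIPK2-203. The G and C content was 60.0% in the HIPK1 exon and 49.4% in the HIPK2 stretch.
HIPK1 exon: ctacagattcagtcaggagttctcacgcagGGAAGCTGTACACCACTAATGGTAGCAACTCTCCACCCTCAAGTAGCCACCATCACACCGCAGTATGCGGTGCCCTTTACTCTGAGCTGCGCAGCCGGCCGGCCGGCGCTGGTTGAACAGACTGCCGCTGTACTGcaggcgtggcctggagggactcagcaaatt
HIPK1 skipping join: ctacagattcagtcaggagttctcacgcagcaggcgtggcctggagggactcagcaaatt
HIPK2 stretch: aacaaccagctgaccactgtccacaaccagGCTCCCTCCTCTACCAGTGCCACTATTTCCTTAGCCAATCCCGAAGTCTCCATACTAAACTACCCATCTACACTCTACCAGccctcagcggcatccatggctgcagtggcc
HIPK2 short join: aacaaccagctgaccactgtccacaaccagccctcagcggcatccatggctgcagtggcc

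The libraries held 12851942 to 18483220 estimated reads, the fewest in parental replicate 2. That library also had the shortest fragments, by the difference between transcript length and effective length: 206.7 bases, against 217.0 in parental replicate 1 and 232.9 and 225.8 in the knockout. The second 7SK entry of the annotation, which holds the reads and was chosen after its values were seen, had 5572 and 5481 CPM in parental cells, against 169 and 205 in the knockout. CPM is the read count relative to library depth, corrected for library composition with TMM factors. LARP7 itself had 59.8 and 46.5 CPM in parental cells, against 36.1 and 31.9 in the knockout, so it was lower in both knockout libraries without being absent from the RNA (log2 fold change -0.65, SE 0.16, edgeR quasi-likelihood adjusted p = 0.135). Of 10 markers of HEK293 cells, 9 were at 1 CPM or more in every library, with sums of 720 and 703 CPM in parental cells, against 769 and 762 in the knockout. NEFM, a neurofilament gene, had 49.4 and 73.6 CPM in parental cells, against 7.76 and 8.58 in the knockout, and ENO2, neuronal enolase, had 1.88 and 2.14, against 0.292 and 0.355. The part of this difference in the HIPK levels was not tested. Of markers of other cell types, 6 of 7 were below 1 CPM everywhere and PECAM1, HBB and MYH7 were at 0. The remaining marker, COL1A1, had 5.68 and 6.75 CPM in parental cells, against 7.30 and 6.86 in the knockout.

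Per length of transcript, HIPK2 and HIPK1 were the more abundant members, HIPK3 stood next, and HIPK4 was close to undetected. HIPK2 stood at 22.0 and 17.0 TPM in parental cells, against 18.04 and 17.9 in the knockout. HIPK1 stood at 17.6 and 12.1 TPM in parental cells, against 22.2 and 23.2 in the knockout. HIPK3 stood at 9.65 and 6.25 TPM in parental cells, against 17.8 and 16.2 in the knockout. The order changed between the groups: HIPK2 was above HIPK1 in both parental libraries and below it in both knockout libraries. The ratio of HIPK1 to HIPK2, which does not depend on how a library is scaled, was 0.801 and 0.711 in parental cells, against 1.23 and 1.29 in the knockout. The ratio of HIPK3 to HIPK2 went from 0.438 and 0.369 to 0.986 and 0.902, so that HIPK2 and HIPK3 were nearly level in TPM in the knockout. The ratio of HIPK3 to HIPK1 went from 0.547 and 0.519 to 0.802 and 0.697. HIPK2-201, a model of only 2937 bases, held 43.8% of HIPK2 TPM but 14.2% of its reads in parental cells. In the knockout it held 44.0 and 14.6%. The TPM of HIPK2, and its ratios, thus depend on the reads assigned to that model.

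Between libraries, levels were compared in CPM with edgeR across 18484 genes. HIPK2 (ENSG00000064393.15, chr7:139561570-139777778, minus strand) had 256.7 and 253.7 CPM in parental cells, against 180.0 and 171.0 in the knockout. Both knockout libraries lay below both parental libraries, at 176 ± 6.33 against 255 ± 2.06 (SD, n = 2), a log2 fold change of -0.54 (SE 0.11). The difference missed the threshold across all genes (edgeR quasi-likelihood adjusted p = 0.0787); DESeq2, run as an alternative, gave an adjusted p of 0.00567. edgeR called 0.833% of all genes at an adjusted p under 0.05 (0.33% higher and 0.503% lower in the knockout), and DESeq2 2.48%. Groups that do not overlap were common with 2 libraries each: 46.3% of all genes tested had them, 22.7% with the knockout lower.

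HIPK1 (ENSG00000163349.21, chr1:113929192-113977869, plus strand) had 164.2 and 138.9 CPM in parental cells, against 182.6 and 177.4 in the knockout. The groups did not overlap, but the gap was narrower than that between the parental libraries. The group values were 152 ± 17.9 and 180 ± 3.62 CPM (SD, n = 2), a log2 fold change of 0.25 (SE 0.13, edgeR quasi-likelihood adjusted p = 0.433). Without parental replicate 2 the log2 fold change was 0.13, and without parental replicate 1 it was 0.37.

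HIPK4 (ENSG00000160396.8, chr19:40379271-40390187, minus strand) had 0 and 3 reads in parental cells, against 0 and 1 in the knockout. It did not pass the filter on low counts and was not tested. A count of 0 allows up to 3 reads, which is 0.17 CPM in parental replicate 1 and 0.175 in knockout replicate 1, so a difference was not detectable at this depth. Its locus overlaps PLD3 on the other strand, which had 764 to 862 reads, and the strand setting is not given in the sources used here.

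HIPK3 (ENSG00000110422.11, chr11:33256672-33357023, plus strand) had 80.8 and 66.2 CPM in parental cells, against 121.3 and 118.7 in the knockout. It was thus higher in both knockout libraries, 120 ± 1.88 against 73.5 ± 10.3 CPM (SD, n = 2), or 1.63-fold. Its log2 fold change was 0.71 (SE 0.14), 0.85 without parental replicate 1 and 0.57 without parental replicate 2. Knockout CPM above parental CPM without overlap was found for 23.5% of all genes.

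**Figure D1:**
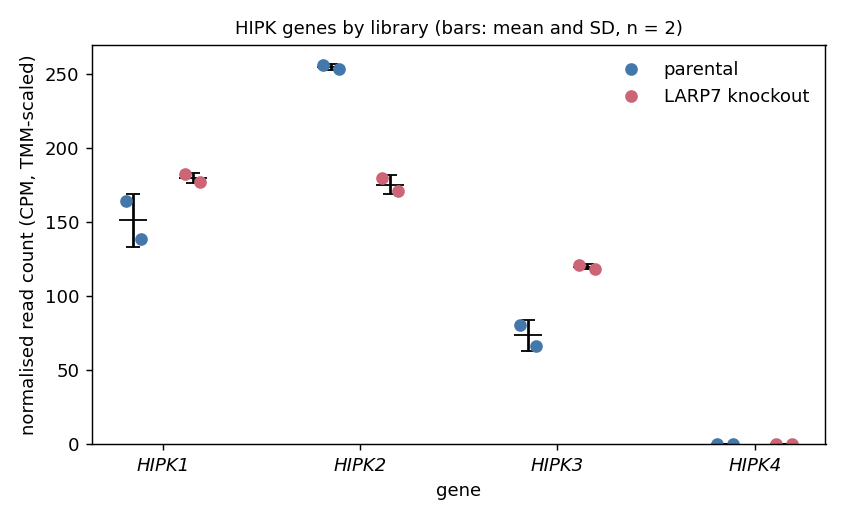
Normalised read count (CPM after TMM scaling, vertical axis) of the 4 HIPK genes in each library, with the parental libraries in blue and the knockout in red; lines and bars give the mean and SD of 2 libraries. HIPK2 lies lower and HIPK3 higher in both knockout libraries, HIPK1 rests on a wide parental spread, and HIPK4 lies at or near 0.

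The HIPK3 difference was about as large as that of 1 of its transcripts, HIPK3-201. Of its 6 transcripts, HIPK3-205 and HIPK3-206 had no reads in any library, and the other 4 each held at least 5% of the gene's TPM in some library. HIPK3-201, the only one of these 4 with the 63-base exon, had 7.24 and 7.997 CPM in parental cells, against 50.1 and 61.0 in the knockout, a ratio of means of 7.29. All other HIPK3 transcripts together had 73.6 and 58.2 CPM in parental cells, against 71.3 and 57.7 in the knockout. The gene was 46.5 CPM higher in the knockout, HIPK3-201 was 47.9 CPM higher, and the rest of the gene was 1.42 CPM lower by means (65.9 ± 10.8 against 64.5 ± 9.61, SD, n = 2). The spread between libraries of 1 group was wider than that last gap.

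Among the transcripts without the exon, HIPK3-202, which is HIPK3-201 less the exon, had 36.3 and 35.4 CPM in parental cells, against 18.3 and 22.6 in the knockout. It was lower in both knockout libraries, 1.75-fold by the means. HIPK3-203, which starts from another first exon, had 22.4 and 10.8 CPM in parental cells, against 27.0 and 15.7 in the knockout, and its groups overlapped. HIPK3-204, which starts furthest upstream and lacks the long last exon end, had 14.9 and 12.0 CPM in parental cells, against 25.9 and 19.4 in the knockout. Its knockout libraries lay above the parental ones. HIPK3-202, HIPK3-203 and HIPK3-204 encode 1194 codons each, against 1215 in HIPK3-201. GENCODE grades the support of a transcript model from 1 (best) to 5 (weakest). HIPK3-201 has level 5, HIPK3-203 level 2, and HIPK3-202 and HIPK3-204 level 1.

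**Figure D2:**
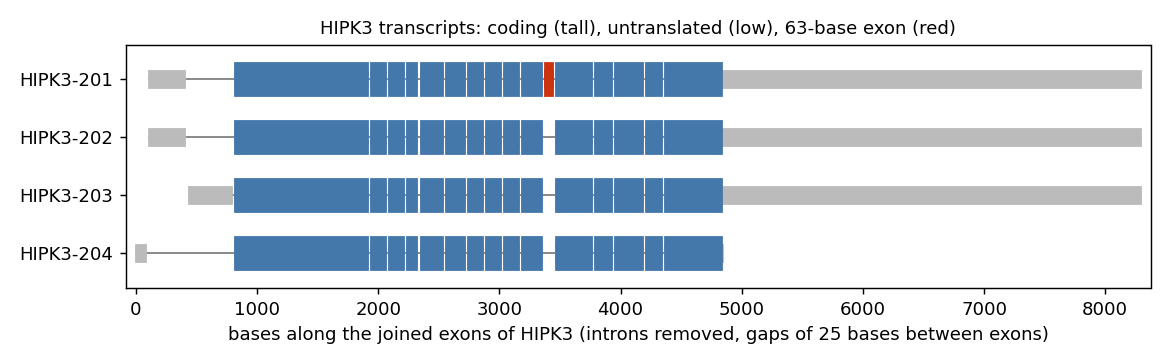
Exons of the 4 HIPK3 transcripts with reads, drawn to scale along the joined exons with introns removed (horizontal axis, bases); tall blue boxes are coding, low grey boxes untranslated, and the 63-base exon is red. The red exon is in HIPK3-201 alone, and the models otherwise differ in their first exon and in where the last exon ends.

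As shares of the gene's TPM, HIPK3-201 held 7.44 and 10.1% in parental cells, against 33.4 and 43.6% in the knockout. The means were 8.75% ± 1.86 and 38.5% ± 7.17 (SD, n = 2), 29.8 percentage points apart. HIPK3-202 held 37.6 and 45.0% in parental cells, against 12.3 and 16.3% in the knockout, 27.0 points less by the means. HIPK3-201 was thus the least used of the 4 in parental cells; in the knockout it was the most used in replicate 2 and second to HIPK3-204 in replicate 1. HIPK3-204 held 31.6% ± 0.429 and 32.5% ± 5.12, and HIPK3-203 held 18.3% ± 6.62 and 14.7% ± 4.85. By estimated reads in place of TPM, the share of HIPK3-201 was 8.96, 12.1, 41.3 and 51.4% in the same order of libraries.

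Start site use was estimated by adding the transcripts that share a first exon. Only the HIPK3-201 model holds the exon, so fragments that touch the exon are assigned to its first exon, whichever start they came from. The start shares are thus not independent of the exon, and neither is the share within the pair below. Whether transcripts from the other starts include the exon was not tested. The first exon of HIPK3-201 and HIPK3-202 held 45.1 and 55.0% of HIPK3 TPM in parental cells, against 45.8 and 59.9% in the knockout. That of HIPK3-203 held 23.0 and 13.6% in parental cells, against 18.1 and 11.2% in the knockout. That of HIPK3-204 held 31.9 and 31.3% in parental cells, against 36.2 and 28.9% in the knockout. For each of the 3 first exons the groups overlapped, and the means lay within 4 percentage points of each other. Within the pair that shares the first start, HIPK3-201 made up 16.5 and 18.3% of the TPM in parental cells, against 73.1 and 72.8% in the knockout. These means, 17.4% ± 1.26 and 72.9% ± 0.177 (SD, n = 2), were 55.5 points apart, and the libraries of each group were within 2 points of each other.

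**Figure D3:**
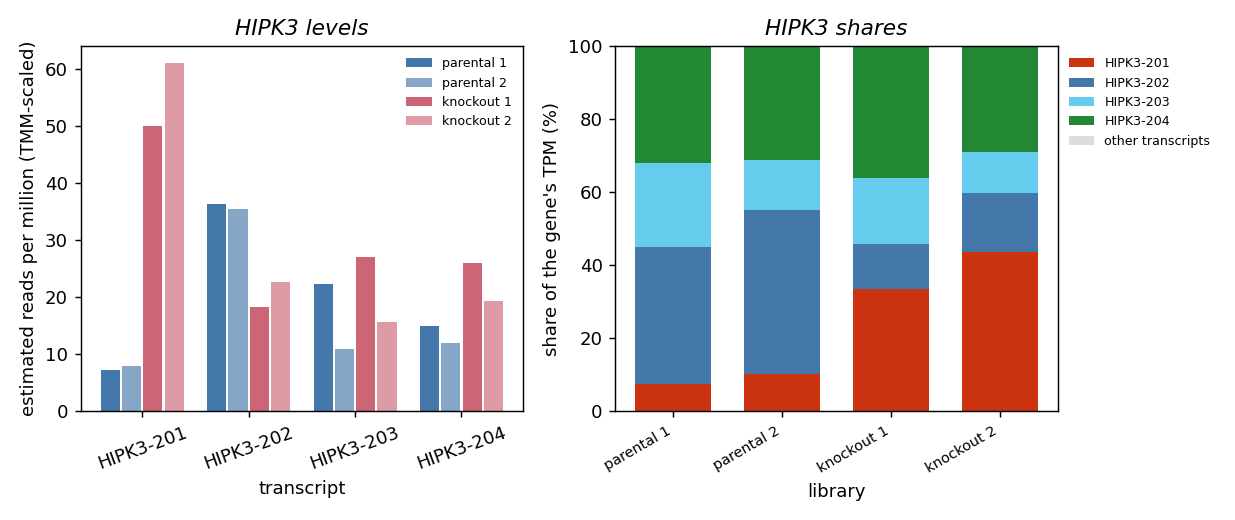
HIPK3 transcripts by library: the left panel gives CPM of each transcript (vertical axis) with 1 bar per library, and the right panel stacks each transcript's share of the gene's TPM (percent). HIPK3-201 (red in the right panel) takes 7.44 and 10.1% in the parental libraries against 33.4 and 43.6% in the knockout, and HIPK3-202 takes less in the knockout.

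Few fragments tell HIPK3-201 from HIPK3-202. Salmon, which divides each read among the transcripts it could come from, can separate them only by fragments that touch the exon or the join that replaces it. With even coverage, the 127 and 101 reads assigned to HIPK3-201 in the parental libraries would include about 4.96 and 3.77 fragments that touch the exon, and the 858 and 1031 in the knockout about 35.4 and 41.5. So few fragments leave a large counting error on the parental shares. Fragments were also longer in both knockout libraries, as given above, and the part of this in the HIPK3 shares was not tested.

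To place the HIPK3 exon among like events, all pairs of transcripts that differ only by 1 internal exon were collected, a step added after the HIPK3 values had been seen. Of 1447 such pairs, 183 in 159 genes had at least 100 reads in every library. The median difference over the pairs was 0 points, and the median size of a difference was 3.14 points. Groups did not overlap for 19.7% of the pairs, and for 6.01% they also differed by 20 points or more, 5 pairs with more of the exon in the knockout and 6 with less. HIPK3 had the widest difference of the 183, and it was put in view by that same contrast. The next 4 pairs by size were in RAP1GAP2, ZNF236, NT5C3A and KDM6A, with differences of -50.7, 49.9, -48.2 and 45.6 points. In these 4 genes the libraries of a group lay far apart: the exon share of RAP1GAP2 was 98.6 and 0.00689% in the knockout, that of ZNF236 24.1 and 99.1%, that of NT5C3A 12.3 and 85.9% in the parental libraries, and that of KDM6A 65.5 and 90.7% in the knockout. Some pairs with smaller differences had close libraries, as HIPK3 did. The exon share of DSTYK was 60.6 and 63.8% in the parental libraries, against 77.8 and 77.1% in the knockout. That of ERLEC1 was 79.6 and 73.6%, against 91.6 and 91.7%. The HIPK3 exon is short for this set, in which 22.4% of exons were 63 bases or less and the median was 102 bases.

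**Figure D4:**
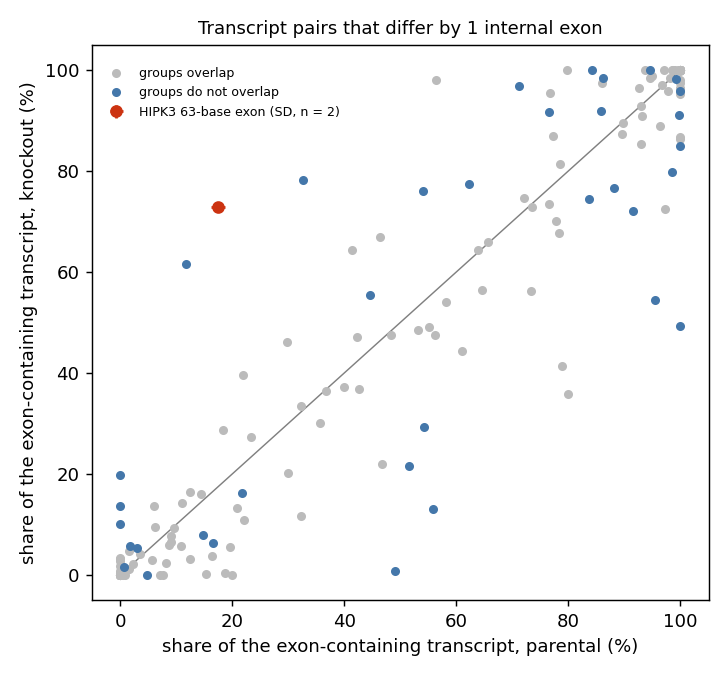
Share of the exon-containing transcript within each of 183 transcript pairs that differ by 1 internal exon, as the mean of the parental libraries (horizontal axis, percent) against that of the knockout (vertical axis, percent); the line marks equal shares. HIPK3, in red with SD bars for 2 libraries, lies at 17.4 and 72.9%, most pairs lie near the line, and pairs whose groups do not overlap are blue.

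By its whole transcript profile HIPK3 was less extreme. Among 8263 protein-coding genes with at least 100 reads in every library, it ranked 218 by the largest shift of any transcript share, against a median largest shift of 8.71 points, and 9.22% of these genes shifted by 20 points or more. The 3 genes with a shift closest in size were MAGED4, C7orf26 and CDC34, each -29.8 points for 1 transcript. Their libraries were more spread: MAGED4-204 held 73.5 and 64.5% in parental cells, against 25.4 and 53.1% in the knockout, and MAGED4 has a near-identical copy between which reads can be split. The 3 genes whose CPM profile over the 4 libraries was most like that of HIPK3, among 3545 of similar level, were SEPHS2, EPHA7 and UCHL1. SEPHS2 had 68.6 and 54.3 CPM in parental cells, against 96.9 and 98.1 in the knockout, a distance of 0.0623 on the mean-centred log2 scale.

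HIPK1 and HIPK2 also have transcripts with and without a coding stretch. Neither gene passed the test of transcript usage (edgeR diffSpliceDGE, adjusted p = 0.999993 for each, over 10196 genes of which 0.824% were called). Their models differ by more than the stretch. HIPK2-203 ends earlier than HIPK2-202 and has 3969 bases, against 15049. HIPK1-204 ends earlier than HIPK1-205 and has 3966 bases, against 8157. The shares below are thus not a measure of the stretch alone. In HIPK1 the transcripts that skip the 135-base exon held 25.5 and 24.9% of the TPM of all transcripts that span it in parental cells, against 15.6 and 20.1% in the knockout. The difference of means was -7.35 points, and the groups did not overlap (exact permutation test, two-sided, p = 0.333, the smallest that 2 against 2 libraries allow). By estimated reads the skipping share was 17.7 and 14.01% against 8.24 and 16.5%, and the groups overlapped. In HIPK2 the transcript without the 81-base stretch, HIPK2-203, held 7.52 and 13.1% in parental cells, against 10.9 and 12.2% in the knockout (exact permutation test, two-sided, p = 1.0). Over all transcripts that span it, the HIPK3 exon differed by 29.8 points. HIPK3 was put in view by that contrast. The models of these genes differ in other ways, so the shares are not like measures, and the difference between the genes was not tested.

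HIPK1-205, the full-length model with the long last exon, held 66.8% ± 1.72 of HIPK1 TPM in the parental libraries and 67.0% ± 14.3 in the knockout (SD, n = 2). HIPK1-204, which skips the exon and ends early, held 19.2 and 24.3% in parental cells, against 15.1 and 11.9% in the knockout. Both HIPK1-206 and HIPK1-211, which start from the same upstream exon, varied widely between libraries of a group, and their groups overlapped. HIPK1-206 held 6.73 and 0.476% in parental cells, against 2.94 and 17.3% in the knockout, and HIPK1-211 was listed at 0 in 1 library of each group and at 5.78 and 7.33% in the others. Together with HIPK1-208, the upstream start held 13.6 and 4.90% of the TPM of the models that begin at either 5′ start in parental cells, against 4.44 and 27.4% in the knockout, and the groups overlapped (exact permutation test, two-sided, p = 1.0). Of the TPM of models that end in either 3′ region, those with the long last exon held 78.1 and 70.0% in parental cells, against 83.1 and 82.5% in the knockout (exact permutation test, two-sided, p = 0.333). This share leaves out HIPK1-206, whose model ends at another point. The long-end models had 12.6 and 8.20 TPM in parental cells, of 17.6 and 12.1 for all of HIPK1. In the knockout they had 17.9 and 15.6 TPM, of 22.2 and 23.2. As shares of the whole gene, the groups overlapped. HIPK1-AS1, an antisense gene that overlaps HIPK1 exons, had only 7 to 18 reads.

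All 3 HIPK2 transcripts had a lower mean in the knockout, and the shares of each overlapped between the groups. HIPK2-202, the full-length model, had 208.5 and 205.8 CPM in parental cells, against 147.3 and 134.3 in the knockout. HIPK2-201, a shorter model, had 39.5 and 33.1 CPM in parental cells, against 24.1 and 26.9 in the knockout. HIPK2-203 had 8.72 and 14.8 CPM in parental cells, against 8.58 and 9.84 in the knockout, and its groups overlapped. In shares of TPM, HIPK2-202 held 45.9% ± 0.588 and 44.5% ± 3.55, and HIPK2-201 held 43.8% ± 4.56 and 44.0% ± 2.62 (SD, n = 2).

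**Figure D5:**
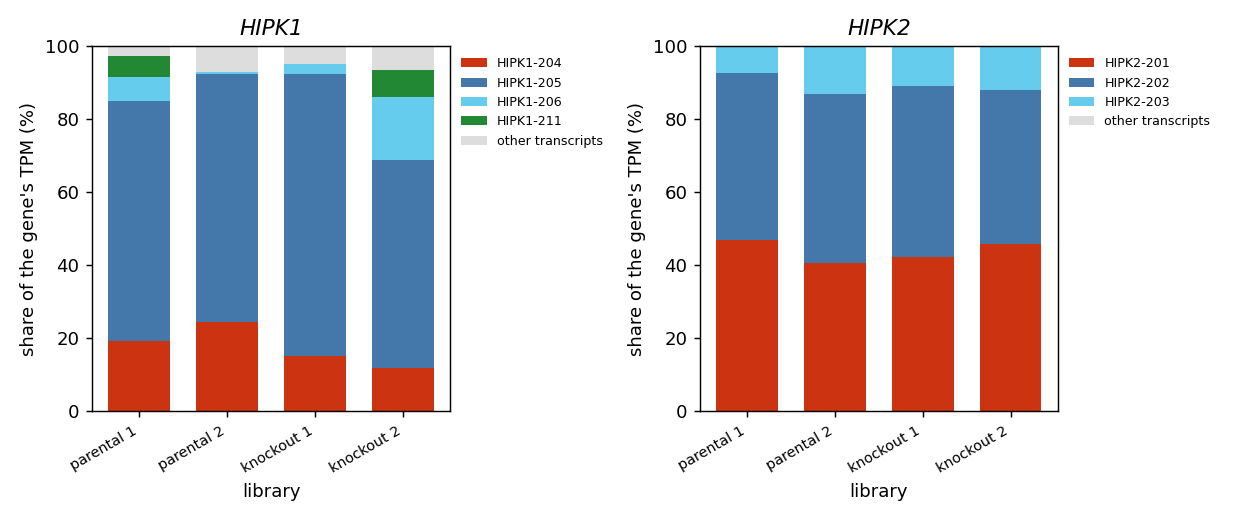
Transcript shares of HIPK1 (left) and HIPK2 (right) as percent of the gene's TPM (vertical axis) in each library (horizontal axis), with transcripts under 5% in every library grouped in grey. The HIPK2 shares overlap between the groups, while in HIPK1 the shares of HIPK1-206 and HIPK1-211 vary between libraries of 1 group.

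The genes around HIPK2 were mostly lower in the knockout as well. The 20 nearest tested protein-coding genes, 10 on each side (chr7:138460334-141480380), had a median log2 fold change of -0.48, and 18 of the 20 were below 0. With edgeR 0 of the 20 passed the test, and 9 had an unadjusted p under 0.05, as had 14.3% of all genes tested. DESeq2 called 4 of the 20 and limma voom 0, against 2.48% and 0.812% of all genes. HIPK2 itself, at -0.54, lay close to that median. The median of all 648 tested protein-coding genes of the chromosome was 0.02. The 20 neighbours of HIPK1 had a median of 0.12, those of HIPK3 0.12 and those of HIPK4 0.02, beside 0.25 for HIPK1 and 0.71 for HIPK3 themselves. The median around HIPK3 was 0.26 with 5 genes and 0.19 with 20 genes on each side, and 0.21 with library size alone. Around HIPK1 it was 0.16, 0.14 and 0.21 under the same settings. The part of the regional difference in the HIPK2 level was not tested.

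The kinases and proteins that work with the HIPK family were read from lists chosen by function. None of the members of the 3 lists passed edgeR's test over all genes, which called 0.833% of all genes. The 6 DYRK-related kinases, the nearest relatives of the HIPKs, had a median log2 fold change of 0.14, 3 positive and 3 negative, against a median of 0.002 over all genes. DYRK3, which dissolves stress granules, had 21.3 ± 1.76 CPM in the parental libraries and 27.9 ± 4.47 in the knockout (log2 fold change 0.39, edgeR adjusted p = 0.378), and DYRK4 had 8.22 ± 0.944 and 11.6 ± 0.470 (0.50, edgeR adjusted p = 0.371). An unadjusted p under 0.05 was found for 0 of the 6, against 14.3% of all genes. DESeq2 and limma voom called 0, against 2.48% and 0.812% of all genes. Groups did not overlap for 4, against 46.3% of all genes.

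The 12 regulators of HIPK turnover and SUMO modification divided evenly, 6 positive and 6 negative, with a median of 0.02. An unadjusted p under 0.05 was found for 1 of the 12, a share no higher than the 14.3% of all genes. That gene was ZYX, encoding the focal adhesion protein zyxin, which also binds HIPK2. It had 61.3 and 46.7 CPM in parental cells, against 32.8 and 29.6 in the knockout (log2 fold change -0.79, edgeR adjusted p = 0.08; DESeq2 adjusted p = 0.00605). Groups did not overlap for 6 of the 12, near the 46.3% of all genes. ZYX was the only one of the 12 that DESeq2 called, and limma voom called 0, against 2.48% and 0.812% of all genes.

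Of 31 substrates and partners, 30 could be tested and SP100 could not. Their median was 0.09, with 20 positive and 10 negative. An unadjusted p under 0.05 was found for 5 of the 30 and groups that did not overlap for 14, both near the 14.3% and 46.3% of all genes. HIF1A, the oxygen-regulated transcription factor, had 164.3 and 124.7 CPM in parental cells, against 218.2 and 220.4 in the knockout (log2 fold change 0.60, edgeR adjusted p = 0.132; DESeq2 adjusted p = 0.0158). PML, the organiser of nuclear bodies in which HIPK2 can reside, had 25.1 and 26.0 CPM in parental cells, against 18.2 and 19.8 in the knockout (-0.43, edgeR adjusted p = 0.293). HIF1A was the only member of this list that DESeq2 called, and limma voom called 0. Without parental replicate 1, edgeR called DYRK2, ZYX, HIF1A, LEF1, FADD, JUN and DAXX, and without parental replicate 2 its calls included FBXO3, ZYX, RANBP9, HIF1A and SKI. Without parental replicate 2 the median of the turnover list was -0.08 and that of the substrates -0.004.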

How the data were processed

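Total RNA-seq of 2 parental and 2 LARP7 knockout libraries was used. Per the file headers, the authors' deposited tables give per transcript an estimated count, TPM, length and effective length. The tables have the columns that Salmon writes, and Salmon 1.6 is named per the submitters' processing notes, which also list STAR 2.5.3a, cutadapt 1.6, edgeR 3.24.3, R 3.5.1 and 3.3.3, Picard, SAMtools 1.3.1 and hg38. The role of each, the strand setting and the annotation release were not given in the sources used here. Fragment length was read from the length and effective length in the deposited tables.

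Transcripts were joined to GENCODE v29 (GRCh38); 197318 of 198002 matched, and the 684 others held 0.063 to 0.071% of reads. Per gene, the estimated counts were added up and rounded. Genes were tested with edgeR 4.0.16 in R 4.3.3 (filterByExpr, TMM, quasi-likelihood F test of knockout against parental, Benjamini-Hochberg adjustment, threshold 0.05). Each SE was taken as the log2 fold change over the square root of F. TPM depends on everything else in a library, so levels were compared between libraries in TMM-scaled CPM and between genes in TPM. Shares are of the gene's TPM. For usage, diffSpliceDGE with Simes p-values per gene was run on transcripts that reached 10 reads and 5% of their gene in 2 libraries. Shares of HIPK1 and HIPK2 features were compared with exact permutation tests. Salmon's assignment error among similar transcripts is not in these tests. Limits for a count of 0 cover counting error only.

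Alternatives were DESeq2 1.42.0, limma 3.58.1 voom, other scaling, filters and share minimums, an offset for transcript length, leaving out each library in turn, and a replicate block. Named were the 4 genes, their transcripts with at least 5% of TPM in a library, LARP7 and 7SK, the 2 largest non-overlapping changes of each list, and the 3 genes closest to HIPK3 in CPM profile and in share shift; the genes with large exon-pair differences were picked with their values in view. Some items that this rule selects are not reported here. The members and lists were chosen with earlier results of these data known. The steps were tested on simulated data.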

Additional observations from a re-analysis of the deposited data

How the results depend on the processing

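HIPK1 passed the threshold under none of 12 alternatives (log2 fold change 0.13 to 0.37, adjusted p 0.0628 to 0.999883). HIPK2 stayed below 0 in all 12 (-0.57 to -0.45). With all 4 libraries, it passed the threshold with DESeq2 (-0.55, adjusted p = 0.00567), with no filter (-0.53, edgeR adjusted p = 0.0117) and with the replicate block (-0.54, edgeR adjusted p = 0.000734). These settings called 459 of 18484, 831 of 31419 and 1656 of 18484 genes, against 154 of 18484 in the main fit. HIPK2 did not pass in the other alternatives with all 4 libraries (highest edgeR adjusted p = 0.163, with the offset for transcript length). With each library left out in turn it was -0.57 to -0.50. HIPK3 lay 0.57 to 0.85 higher in all 12, and the share of HIPK3-201 was 24.7 to 35.8 points higher in all 6 that were run. HIPK1 and HIPK2 usage passed in none of 9 (adjusted p 0.868 to 1).

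The count of genes changed, 154, was 459 with DESeq2, 831 with no filter, 96 with the stricter filter and 91 with the offset for transcript length, and 200 to 2265 with 1 library left out. With library size alone it was 188, of which 106 were higher and 82 lower, against 61 and 93. The count of genes with changed usage, 84, was 132 with no share minimum, 21 with a minimum of 10%, 0 with limma voom, and 0 to 127 with 1 library left out. With 1 library left out, the lone library is assumed to vary like the other group.

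The replicate block gave 1656 genes changed and 0 with changed usage. The numbers were not shown to pair the libraries: over 18484 genes, the difference between replicates 1 and 2 in the parental group correlated with that in the knockout at r = 0.133, and there are only 2 pairs. The block also called ZYX, HIF1A and SKI, and changed no other call on the HIPK genes than that of HIPK2.

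With 2 libraries a group, tests on single shares cannot pass, and the HIPK3 shares rest on few fragments over 1 exon. The medians of the HIPK2 neighbours were -0.52 with 5 genes and -0.44 with 20 genes on each side, and -0.39 with library size alone.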

Other observations

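HIPK1-202, chosen after its values were seen, was listed at 0 reads in both parental libraries and at 86.4 and 81.4 in the knockout, or 3.5 and 3.11% of HIPK1 TPM. Its exons lie within the span of HIPK1-205, and whether these reads belong to it was not tested. EPHA7, a receptor tyrosine kinase, and UCHL1, a ubiquitin hydrolase of neurons, whose CPM profiles were close to that of HIPK3, had 61.9 and 53.4 CPM against 95.1 and 87.5, and 83.2 and 69.5 CPM against 116 and 114, parental against knockout.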
